A study of Mus musculus with 24 samples.

Results

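The membrane-bound mucins Muc1, Muc3, Muc4, Muc13 and Muc20 were followed across mouse small intestinal organoids lacking the Mediator kinases or treated with an inhibitor of them. The 5 genes were taken by name and matched to 1 Ensembl identifier each, out of 54146 genes in the count tables. Transmembrane mucins are heavily glycosylated proteins anchored in the apical membrane of epithelial cells. In the intestine they form the glycocalyx over the microvilli, a layer distinct from the secreted gel built by Muc2, and their cytoplasmic tails bind scaffold and signalling proteins. Muc13 and Muc3 are the family members typical of intestinal enterocytes, whereas Muc1 and Muc4 are found on many epithelia and bind ErbB receptors.

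RNA was sequenced in 24 libraries, 3 in each of 8 groups, from 2 separately normalised experiments. In the genotype experiment the groups were WT, Cdk8-/-, Cdk19-/- and the double knockout, and all 12 cultures received 600 nM 4-hydroxytamoxifen for 7 days. Organoids came from Cdk8 lox/lox mice with or without Villin-CreERT2, a tamoxifen-inducible Cre driven in intestinal epithelium, and Cdk19 was disrupted with a lentiviral guide RNA followed by picking of single organoids, so that a Cdk19 line may descend from 1 clone. In the second experiment organoids described by the authors as WT received Senexin B, an inhibitor of CDK8 and CDK19, or its vehicle DMSO for 16 h or 24 h. The labels give biological triplicates without naming the animals or cultures behind them, so the p-values measure the spread between these libraries.

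The depth on genes in the strand column used ran from 14636861 to 15473180 reads in the genotype libraries and from 27075937 to 28405118 in the Senexin B libraries. With strand ignored it ran from 27761454 to 29299919 and from 28264517 to 28826860, because the genotype libraries did not keep strand. The labels of the genotype libraries name 4T1, a mammary tumour line, as cell type. The milk protein gene Csn2 had 0 reads in every library and Elf5, a mammary luminal factor, at most 1, whereas Epcam had at least 19443 and the intestinal factor Cdx2 at least 3129 reads in each genotype library. Cdk19 reads lay between 695 and 729 in WT organoids. They were 432 and 428 in Cdk19-/- replicates 2 and 3 and 395 and 361 in double knockout replicates 1 and 2, but 724 in the library labelled Cdk19-/- replicate 1 and 796 in the library labelled double knockout replicate 3. Many of the main values that use these groups are therefore also given without both of these libraries. Cdk8 reads, between 512 and 840 in all 12 libraries, check nothing, because the conditional allele removes a single exon.

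Upstream sequences are shown because Muc3 and Muc13 were the members that rose in the double knockout while Muc4 did not pass the test there. Each is the 250 bases before the RefSeq start (GRCm38.p6; for Muc13 the first of 2 starts), 5′ to 3′ on the gene's strand, for Muc13 at chr16:33793787-33794036 (plus strand), Muc3 at chr5:137166047-137166296 (minus strand) and Muc4 at chr16:32735636-32735885 (plus strand). Capitals mark matches, searched on both strands, to the TATA box written as TATAAA, to the site of the intestinal CDX factors written as TTTATG, to the core site of the enterocyte factor HNF4 written as CAAAGT, to the STAT-binding GAS element written as TTCNNNGAA, or to the GC box written as GGGCGG.
Muc13: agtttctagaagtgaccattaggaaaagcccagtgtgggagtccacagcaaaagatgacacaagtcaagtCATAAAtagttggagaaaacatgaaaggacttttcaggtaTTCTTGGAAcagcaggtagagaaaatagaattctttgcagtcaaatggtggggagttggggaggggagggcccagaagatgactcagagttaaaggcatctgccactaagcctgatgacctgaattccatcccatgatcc
Muc3: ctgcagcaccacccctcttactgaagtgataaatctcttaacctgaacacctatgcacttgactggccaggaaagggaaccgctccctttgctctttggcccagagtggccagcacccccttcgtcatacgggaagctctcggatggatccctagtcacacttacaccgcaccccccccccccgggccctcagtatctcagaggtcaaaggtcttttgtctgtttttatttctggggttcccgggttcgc
Muc4: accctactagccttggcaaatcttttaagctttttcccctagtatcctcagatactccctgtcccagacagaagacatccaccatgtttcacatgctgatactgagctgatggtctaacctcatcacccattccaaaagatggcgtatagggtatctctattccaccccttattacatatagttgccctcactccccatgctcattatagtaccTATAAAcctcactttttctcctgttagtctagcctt
Muc13 held a CDX match on the opposite strand, beginning 180 bases before the start, and a palindromic GAS match beginning 140 bases before it. Muc4 held a TATA box match 36 bases before its start, and Muc3 held no match to any of these letters. RefSeq gives Muc13 a second start, whose window (chr16:33794239-33794488) held an HNF4 match on the opposite strand, beginning 183 bases before that start, and no match to the other letters. Of 32851 RefSeq windows of the same length, 10.8% held the CDX letters, 7.02% the GAS letters, 12.4% the TATA box, 12.6% the HNF4 letters and 32.7% the GC box. A match describes the letters only. The Muc3 window belongs to the RefSeq gene, which starts upstream of the Ensembl gene whose reads were counted (chr5:137134922-137149322). On the same strand, the long non-coding gene Gm3054 (chr5:137154029-137166070) lies upstream of that Ensembl gene and reaches into this window. It passed the filter on low counts in the Senexin B libraries only, with 20 to 93 reads. With Senexin B Gm3054 stood at 0.82 on the log2 scale at 16 h (edgeR adjusted p = 0.236). At 24 h it fell (-1.40, SE 0.398, edgeR adjusted p = 0.0182), as did 12.7% of genes. Whether its reads belong to Muc3 was not tested.

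The members differed widely in level. Per length, Muc13 stood highest, with a mean of 436 RPKM (reads scaled to exon length and library size) in the genotype libraries and 348 RPKM in the Senexin B libraries, ranking 66 of 15591 and 134 of 15460 tested genes. Muc3 followed with 30.5 and 48.1 RPKM, and Muc4 with 15.4 and 13.0 RPKM. Muc13 exceeded Muc3 in all 12 libraries of each experiment, by 8.72-fold to 24.4-fold and by 4.92-fold to 13.8-fold. Muc3 exceeded Muc4 in 12 of 12 Senexin B libraries but in 10 of 12 genotype libraries, so that these neighbours were not separated there. Muc1 was barely detected, with 0.331 RPKM in the genotype libraries and 0.192 RPKM in the Senexin B libraries. In the latter Muc20, at 0.226 RPKM, exceeded Muc1 in 10 of 12 libraries, so that this pair was not separated either.

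The level of Muc20 depended on how strand was handled. Muc20, a mucin that binds the Met receptor, lies on the minus strand at chr16:32777419-32797435, and its end overlaps Muc4 on the plus strand (chr16:32735886-32782391). The overlap covers 627 exonic bases, or 15.6% of the exons of Muc20. In the genotype libraries, where 49.6% to 49.7% of strand-assigned reads fell in the column used, reads did not keep their strand, and Muc20 received 202 to 371 reads in that column. When strand was ignored and reads lying on both genes were left out, Muc20 kept 21 to 59 reads. In the strand-keeping Senexin B libraries Muc20 had 15 to 36 reads on its own strand and 618 to 899 on the opposite strand. The genotype values of Muc20 thus cannot be told apart from reads of Muc4. For Muc13, which shares 184 exonic bases with the antisense gene Gm15657, all columns gave the same order of groups in the double knockout comparison, and the fold change with strand ignored is among the alternatives that kept its call.

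**Figure D1:**
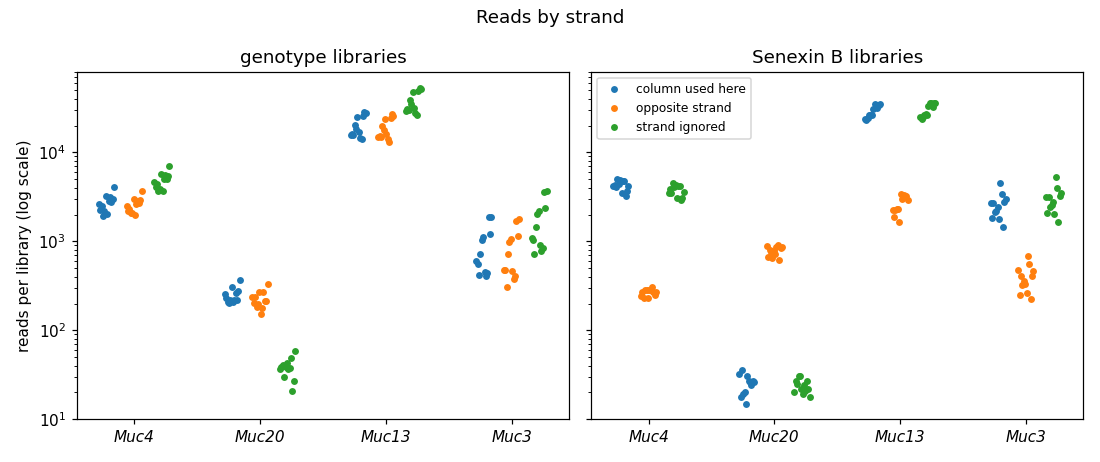
Reads per library (log axis) of Muc4, Muc20, Muc13 and Muc3 in the column used, on the opposite strand and with strand ignored, for the 12 genotype and 12 Senexin B libraries; each point is 1 library. Muc20 fell to 21 to 59 reads with strand ignored in the genotype libraries and had 15 to 36 reads on its own strand in the Senexin B libraries.

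The genotype comparisons asked how loss of each kinase, alone or together, changed the mucins. Muc3 and Muc13 rose in double knockout organoids relative to WT, and no member fell. This was 2 of 5 members, against 9.41% of the 15602 genes tested that were called higher and 7.9% called lower (edgeR quasi-likelihood test, Benjamini-Hochberg adjusted p under 0.05 over all genes). The members' median log2 fold change was 0.73, beside -0.009 over all genes tested. Without both doubted libraries 2 members were still called. The 2700 genes called in either direction became 1348 without WT replicate 1, 1454 without replicate 2 and 1795 without replicate 3, and Muc3 and Muc13 passed in each of these fits.

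For Muc3, an enterocyte glycocalyx mucin, the normalised counts of WT replicates 1 to 3 were 599, 576 and 434. It had 720.2, 1047 and 1061 in Cdk8-/-, 459, 397 and 433 in Cdk19-/-, and 1916, 1178 and 1809 in the double knockout. Every double knockout library lay above every WT and Cdk8-/- library, and every Cdk8-/- library lay above every WT library. Of all genes tested, 18.7% had every double knockout library above WT, 7.76% above Cdk8-/-, and 14.9% had every Cdk8-/- library above WT. The double knockout was 3.04-fold above WT (log2 fold change 1.61, SE 0.199, edgeR adjusted p = 0.000585). Without both doubted libraries the log2 fold change was 1.53 (edgeR adjusted p = 0.00221).

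In Cdk8-/- organoids Muc3 rose 1.76-fold (log2 fold change 0.81, SE 0.197, edgeR adjusted p = 0.0372), the single member called there, against 2.79% of genes called higher. The call was lost in edgeR on leaving out WT replicate 1, 2 or 3, where the log2 fold change was 0.90, 0.86 and 0.68 (edgeR adjusted p = 0.0902, 0.0983 and 0.135), or Cdk8-/- replicate 2 or 3, where it was 0.73 and 0.70 (0.0871 and 0.117). It was also lost with the replicate number as a block (0.82, edgeR adjusted p = 0.0601). Over the whole table the calls in Cdk8-/- against WT went from 804 to 196 without WT replicate 1, 257 without replicate 2 and 332 without replicate 3. In Cdk8-/- organoids all 5 Paneth cell markers rose as well (median 1.49 on the log2 scale), with a summed level of 3840 to 5140 CPM, or counts scaled to library size, against 1260 to 1660 in WT. The goblet markers Spdef and Agr2 rose too, with sums over 9 goblet markers of 3430 to 3870 against 2250 to 3170, and with the replicate block 1 goblet marker was called. The enterocyte marker Apoa4 rose (1.09, SE 0.261), with sums over 10 enterocyte markers of 13300 to 14000 against 12600 to 13000, and the stem cell marker Lgr5 fell (-0.86, SE 0.148), with sums over 5 stem markers of 2220 to 3540 against 2490 to 2830. The part of these markers in the Muc3 value was not tested. In Cdk19-/- organoids the Muc3 log2 fold change was -0.32 (SE 0.2, edgeR adjusted p = 0.627), and -0.36 (edgeR adjusted p = 0.493) without both doubted libraries.

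Against Cdk19-/- organoids the same 2 members were called higher in the double knockout, as were 14.4% of genes; the 3953 calls in either direction became 2399 without Cdk19-/- replicate 2. Muc3 was 3.8-fold higher in the double knockout than in Cdk19-/- organoids (log2 fold change 1.93, SE 0.201, edgeR adjusted p = 0.00013). This log2 fold change was 1.88 (edgeR adjusted p = 0.000696) without both doubted libraries. Against Cdk8-/- organoids its log2 fold change was 0.79 (SE 0.194, edgeR adjusted p = 0.141), which did not pass although the libraries did not overlap, as for 7.76% of genes in that direction. It passed without Cdk8-/- replicate 3 (log2 fold change 0.90, edgeR adjusted p = 0.0453), with DESeq2 (0.81, DESeq2 adjusted p = 0.0113) and without the filter on low counts (0.80, edgeR adjusted p = 0.00154). Without both doubted libraries no member passed in the double knockout against Cdk8-/-. The combined effect, which sets the double knockout and WT against both single knockouts, was 1.11 on the log2 scale (SE 0.278, edgeR adjusted p = 0.116; edgeR called 0.0256% of genes, in this contrast as in the double knockout against Cdk8-/-) and passed without double knockout replicate 2 (1.30, edgeR adjusted p = 0.0484), with DESeq2 (1.11, DESeq2 adjusted p = 0.0108) and without the filter (1.11, edgeR adjusted p = 0.00116). The 4 genes called in each of these contrasts depended on the test, the filter and single libraries. DESeq2 called 407 genes in the double knockout against Cdk8-/- and 490 for the combined effect, and edgeR without the filter 358 and 566. Without Cdk8-/- replicate 3 edgeR called 839 genes in the double knockout against Cdk8-/- and 392 for the combined effect. The combined effect gave 467 calls without Cdk19-/- replicate 1 and 728 without both doubted libraries, where Muc3 stood at 1.09 (edgeR adjusted p = 0.0924) and Muc13 at 0.58 (edgeR adjusted p = 0.0638).

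Muc13, the abundant enterocyte and goblet cell surface mucin, reached 15688, 16537 and 16549 normalised counts in the WT libraries. It had 20348, 18844 and 24168 in Cdk8-/-, 16908, 14027 and 13875 in Cdk19-/-, and 26110, 28028 and 26604 in the double knockout. The 3 double knockout libraries again lay above all WT and Cdk8-/- libraries, where 18.7% of genes lay above WT and 7.76% above Cdk8-/- in this way. Muc13 rose 1.66-fold over WT (log2 fold change 0.73, SE 0.114, edgeR adjusted p = 0.00186) and 1.8-fold over Cdk19-/- (0.85, SE 0.114, edgeR adjusted p = 0.000419). Without both doubted libraries these log2 fold changes were 0.73 (edgeR adjusted p = 0.00222) and 0.94 (0.000525).

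In Cdk8-/- organoids all Muc13 libraries lay above WT, as did those of 14.9% of the genes tested, and the log2 fold change was 0.38 (SE 0.114, edgeR adjusted p = 0.0796; DESeq2 called it, adjusted p = 0.016). Against Cdk8-/- the double knockout differed by 0.35 on the log2 scale (SE 0.114, edgeR adjusted p = 0.197), and this passed without Cdk8-/- replicate 3 (0.47, edgeR adjusted p = 0.0339) and with DESeq2 (0.36, DESeq2 adjusted p = 0.0495). It did not pass in edgeR without both doubted libraries. In Cdk19-/- organoids the value was -0.12 (SE 0.113, edgeR adjusted p = 0.791), and -0.21 (edgeR adjusted p = 0.381) without both doubted libraries. No gene of the whole table was called in Cdk19-/- against WT by edgeR, where 1691 genes had an unadjusted p under 0.05; DESeq2 called 309, none of them a member. Without Cdk19-/- replicate 1, the library with Cdk19 reads at the WT level, edgeR called 521 genes, and without both doubted libraries it called 666, of which 343 were higher and 323 lower and none was a member.

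**Figure D2:**
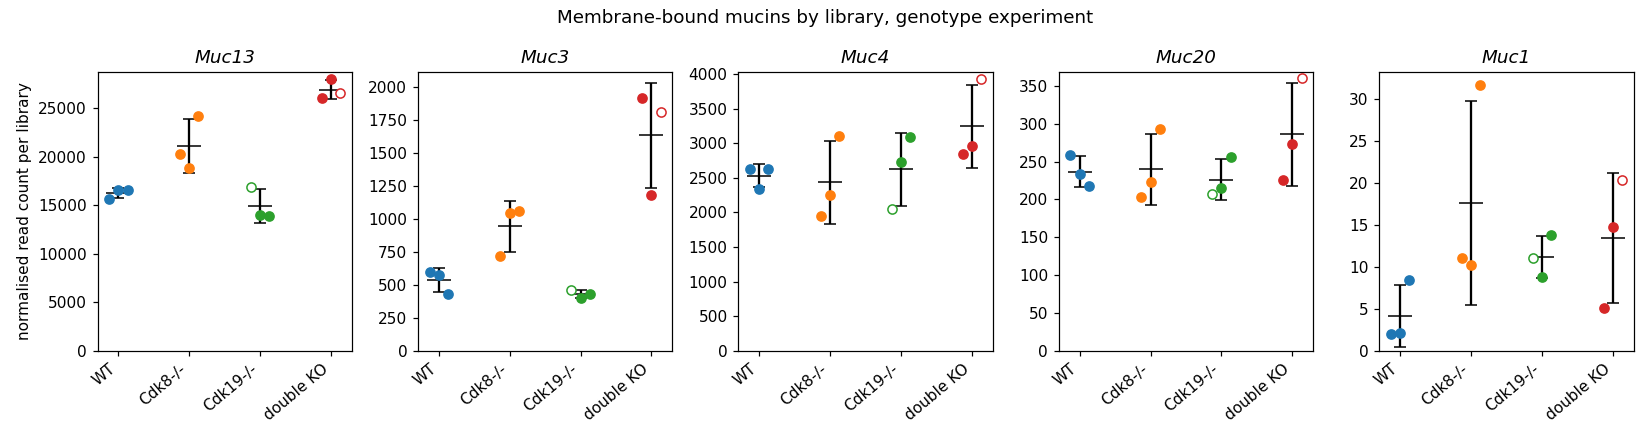
Normalised read counts (linear axes from 0) of the 5 mucins in WT, Cdk8-/-, Cdk19-/- and double knockout organoids. Points are libraries, bars the mean ± SD of 3, and open points the 2 libraries whose Cdk19 counts lay at the WT level. The double knockout libraries of Muc3 (1178 to 1916) and Muc13 (26110 to 28028) lay above all WT and Cdk8-/- libraries.

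Muc4, a ligand-like partner of ErbB2, reached 2625, 2338 and 2627 normalised counts in the WT libraries, against 2841, 2962 and 3927 in double knockout libraries. The groups did not overlap, as for 18.7% of genes in that direction, and the highest value came from the doubted replicate 3. The log2 fold change was 0.36 (SE 0.187, edgeR adjusted p = 0.209), and 0.20 (edgeR adjusted p = 0.425) without both doubted libraries. In Cdk8-/- and Cdk19-/- organoids Muc4 stood at -0.06 (SE 0.187) and 0.05 (SE 0.187) on the log2 scale.

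For Muc20 the WT libraries gave 258.5, 234 and 218 normalised counts and the double knockout libraries 225, 273 and 360.3, which overlapped. Its log2 fold change of 0.27 (SE 0.183, edgeR adjusted p = 0.33) became -0.18 (SE 0.332, edgeR adjusted p = 0.741) with strand ignored and 0.07 (edgeR adjusted p = 0.811) without both doubted libraries. None of these values passed the test.

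Muc1, a signalling mucin of many epithelia, gave 2, 2 and 8 reads in WT. It gave 11, 10 and 33 reads in Cdk8-/-, 11, 9 and 14 in Cdk19-/-, and 5, 15 and 21 in the double knockout. At these counts the log2 fold changes against WT were wide, at 2.08 (SE 0.681, edgeR adjusted p = 0.103), 1.42 (SE 0.713, 0.509) and 1.68 (SE 0.699, 0.118). With strand ignored Muc1 gave 6, 12 and 11 reads in WT, and these values became 1.71, 0.95 and 1.29 (edgeR adjusted p = 0.0833, 0.587 and 0.123). In Cdk8-/- organoids Muc1 passed without the filter on low counts (2.06, edgeR adjusted p = 0.0308) and with the replicate number as a block (2.07, edgeR adjusted p = 0.045), and in the double knockout with the block (1.72, edgeR adjusted p = 0.0436). Without both doubted libraries the double knockout value was 1.25 (edgeR adjusted p = 0.304).

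The inhibitor comparisons asked whether blocking kinase activity in a day or less moved the same genes. Muc13 rose at both times and Muc1 at 24 h, while Muc3 did not pass at either time. At 16 h 1 of 5 members was called higher, against 4.36% of the 15467 genes tested, and at 24 h 2 of 5, against 14.8%. The members' median log2 fold change was 0.34 at 16 h and 0.42 at 24 h, beside -0.006 and 0.001 over all genes tested. With the replicate number as a block the whole table gave 2293 calls at 16 h in place of 1198. At 16 h it gave 752, 657 and 676 without Senexin B replicates 1, 2 and 3 and 1819 without DMSO replicate 1, and at 24 h 2656 in place of 4252 without Senexin B replicate 2.

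Muc13 had 24204, 22585 and 24065 normalised counts in DMSO at 16 h, and 31835, 35619 and 34732 with Senexin B. At 24 h it had 25158, 25531 and 25027 in DMSO and 32016, 34398 and 35214 with Senexin B. All 6 treated libraries lay above all 6 vehicle libraries; within a time point this held for 12.2% of genes at 16 h and 23.5% at 24 h. The rise was 1.44-fold at 16 h (log2 fold change 0.53, SE 0.0639, edgeR adjusted p = 0.000202) and 1.34-fold at 24 h (0.42, SE 0.0638, edgeR adjusted p = 0.000379). Among the marker genes at 16 h, 5 of 9 goblet markers rose (Spdef, Agr2, Zg16, Ccl9 and Clca1) and 2 of 5 Paneth markers fell (Itln1 and Defa24), against 4.36% of all genes called higher and 3.39% called lower. The goblet sums did not rise with these markers, at 2760 to 3120 CPM against 2790 to 3560 in DMSO, and with the replicate block 5 goblet markers rose and 2 fell. The Paneth sums were 1490 to 1930 CPM against 1950 to 2820 in DMSO. Their part in the Muc13 value was not tested. The difference between both times was -0.10 on the log2 scale (SE 0.0901, edgeR adjusted p = 0.668).

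Muc3 had 2712, 1788 and 2705 normalised counts in DMSO at 16 h and 1811, 4630 and 3518 with Senexin B. At 24 h the values were 2059, 2151 and 2319 in DMSO and 1481, 2822 and 3049 with Senexin B. Treated replicate 1 lay within or below the vehicle range while replicates 2 and 3 lay above it. The log2 fold changes were 0.47 (SE 0.29, edgeR adjusted p = 0.375) and 0.17 (SE 0.291, edgeR adjusted p = 0.696).

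Muc1 gave 10, 9 and 10 reads in DMSO at 16 h and 10, 11 and 15 with Senexin B, and 9, 10 and 7 in DMSO at 24 h against 13, 24 and 21 with Senexin B. In normalised counts the treated libraries lay above the vehicle libraries at both times, as for 12.2% of genes at 16 h and 23.5% at 24 h. At 24 h Muc1 rose 2.33-fold (log2 fold change 1.22, SE 0.304, edgeR adjusted p = 0.00918). Without Senexin B replicate 2 the value was 1.04 (edgeR adjusted p = 0.051). At 16 h it was 0.34 (SE 0.324, edgeR adjusted p = 0.614), and the difference between times, 0.88 (SE 0.45), did not pass (edgeR adjusted p = 0.44).

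Muc4 had 4825, 4336 and 4647 normalised counts in DMSO at 24 h and 3324, 3703 and 4241 with Senexin B. All treated libraries lay below all vehicle libraries, as for 22.1% of genes. The log2 fold change was -0.29 (SE 0.108, edgeR adjusted p = 0.0565), just short of the threshold, and with the replicate number as a block it was -0.30 (SE 0.0929, edgeR adjusted p = 0.0188). DESeq2 called it lower (-0.29, SE 0.113, DESeq2 adjusted p = 0.0393), and in edgeR it passed without the filter (-0.29, edgeR adjusted p = 0.0173), with at least 10 counts in every library (-0.30, 0.047), with strand ignored (-0.36, 0.0227), with only both groups fitted (-0.30, 0.0284) and without Senexin B replicate 3 (-0.39, 0.031). At 16 h the value was 0.10 (SE 0.108, edgeR adjusted p = 0.642).

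Muc20 gave 32, 18 and 36 reads in DMSO at 16 h, 31, 27 and 26 with Senexin B, 19, 20 and 15 in DMSO at 24 h, and 24, 27 and 26 with Senexin B. The log2 fold change at 24 h, 0.59 (SE 0.271, edgeR adjusted p = 0.125), became -0.24 (SE 0.233, edgeR adjusted p = 0.467) with strand ignored. Between DMSO at 24 h and 16 h no member was called, against 11.1% of genes in either direction. These 1719 calls became 434 without DMSO 16 h replicate 3 and 522, 1095 and 946 without DMSO 24 h replicates 1, 2 and 3. Muc20 stood at -0.71 there (SE 0.267, edgeR adjusted p = 0.0966) and passed without DMSO 16 h replicate 2 (-0.97, edgeR adjusted p = 0.0173).

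**Figure D3:**
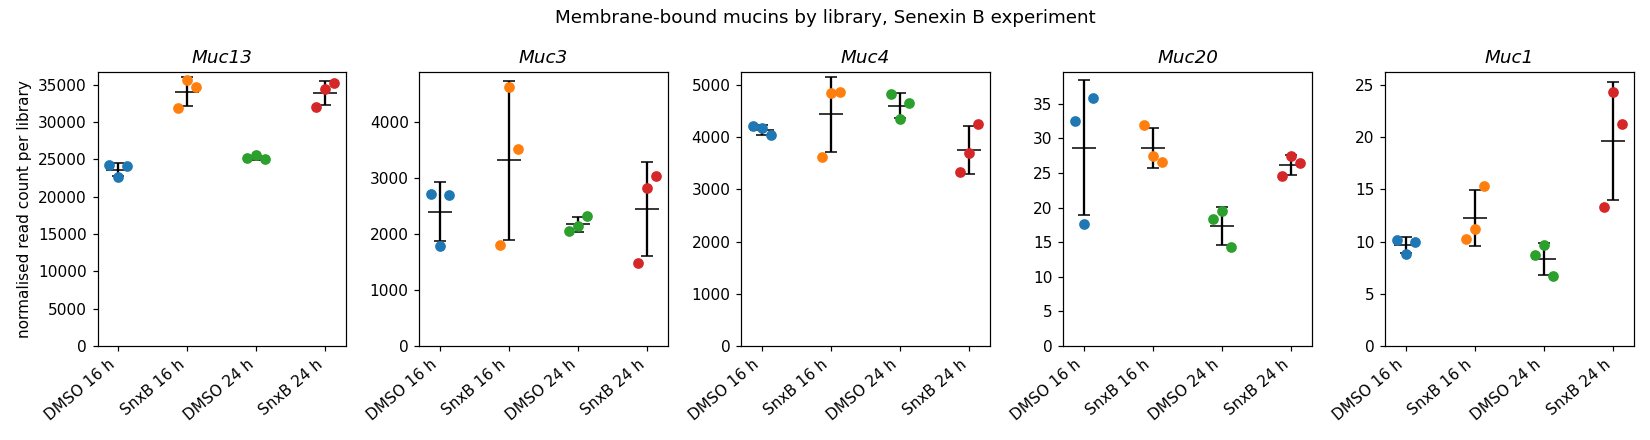
Normalised read counts (linear axes from 0) of the 5 mucins in organoids treated with DMSO or Senexin B (SnxB) for 16 h or 24 h. Points are libraries and bars the mean ± SD of 3; Muc13 lay between 31835 and 35619 in treated and between 22585 and 25531 in vehicle libraries, while Muc3 overlapped at both times.

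Of 6 further transmembrane mucins and mucin-like proteins that had a matching identifier, 3 passed the filter on low counts. In the double knockout 2 of these 3 rose, against 9.41% of all genes called higher, and with Senexin B at 24 h 2 of 3 fell, against 12.7% called lower. Cdhr5, a mucin-like protocadherin of the microvilli, rose in the double knockout (log2 fold change 1.29, SE 0.183, edgeR adjusted p = 0.00123) and fell with Senexin B at 16 h (-0.36, SE 0.0994, edgeR adjusted p = 0.0382) and 24 h (-0.59, SE 0.0997, edgeR adjusted p = 0.000856). Muc3a, at a separate locus and sharing no 50-base stretch with Muc3, rose in the double knockout (0.67, SE 0.184, edgeR adjusted p = 0.027), where its highest value came from the doubted replicate 3. Without both doubted libraries Muc3a was no longer called there (0.46, SE 0.172, edgeR adjusted p = 0.0884), whereas Cdhr5 was (1.32, edgeR adjusted p = 0.0018). With Senexin B Muc3a stood at 0.59 at 16 h (SE 0.206, edgeR adjusted p = 0.0959), where all treated libraries lay above DMSO as for 12.2% of genes, and at 0.49 at 24 h (SE 0.203, edgeR adjusted p = 0.0863). With the replicate block it passed at 16 h (0.57, edgeR adjusted p = 0.0452) and not at 24 h (0.47, edgeR adjusted p = 0.0521). Cd164, a sialomucin, was at 0.00 (SE 0.079) in the double knockout and fell with Senexin B at 24 h (-0.30, SE 0.0863, edgeR adjusted p = 0.0203).

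Muc2, the gel-forming mucin of goblet cells and the one of 5 such genes that passed the filter, rose in Cdk8-/- (0.98, SE 0.163, edgeR adjusted p = 0.0071) and double knockout organoids (1.36, SE 0.165, edgeR adjusted p = 0.00055). Its highest double knockout value came from the doubted replicate 3. Without both doubted libraries the double knockout value was 1.14 (edgeR adjusted p = 0.00047). In Cdk19-/- organoids Muc2 stood at -0.72 (SE 0.164, edgeR adjusted p = 0.152). It was called lower there by DESeq2 (-0.70, DESeq2 adjusted p = 0.0058) and by edgeR without both doubted libraries (-0.81, edgeR adjusted p = 0.00553). With Senexin B it stood at 0.08 (SE 0.129, edgeR adjusted p = 0.784) at 16 h and 0.13 (SE 0.128, edgeR adjusted p = 0.48) at 24 h. The secreted and the membrane-bound mucins thus both held genes that rose in the double knockout. The experiments differ in library type and were not tested against each other.

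**Figure D4:**
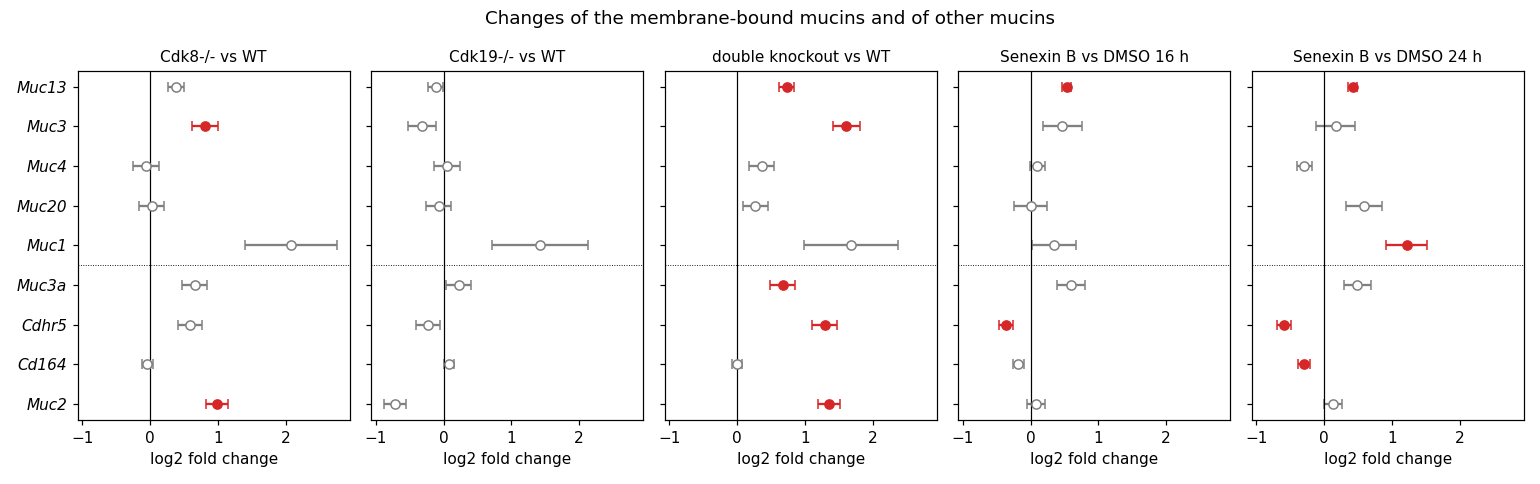
Log2 fold changes (horizontal axis) with their standard errors for the 5 members (above the dotted line) and for Muc3a, Cdhr5, Cd164 and Muc2 (below it) in 5 comparisons. Filled red points passed an adjusted p of 0.05, among them Muc3 at 1.61, Muc13 at 0.73, Muc2 at 1.36, Cdhr5 at 1.29 and Muc3a at 0.67 in the double knockout, and Muc13 at 0.53 and 0.42 and Muc1 at 1.22 with Senexin B.

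Of 20 genes for proteins that bind, cleave or anchor membrane mucins, 8 rose and none fell in the double knockout relative to WT by edgeR, where 9.41% of all genes were called higher, and 8 rose without both doubted libraries; their median log2 fold change was 0.32. The largest changes were in Mep1a, a subunit of the meprin protease (1.38, SE 0.299), the microvillar scaffold Pdzk1 (1.09, SE 0.186), the meprin subunit Mep1b (0.85, SE 0.168) and the intermicrovillar cadherin Cdhr2 (0.85, SE 0.201). With Senexin B at 24 h 1 rose and 5 fell, with a median of -0.15, where 12.7% of all genes were called lower, and with the replicate block 2 rose and 7 fell. Mep1a (-1.06, SE 0.118), Cdhr2 (-0.54, SE 0.106), Egfr (-0.39, SE 0.0873) and the scaffold Anks4b (-0.27, SE 0.0746) fell most. At 16 h 1 rose and 1 fell, where 3.39% of all genes were called lower, and with the replicate block 1 rose and 3 fell.

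Marker genes of the epithelial cell types also differed between groups, and their counts in the double knockout stand beside 9.41% of all genes called higher and 7.9% called lower. In the double knockout 5 of 10 enterocyte markers rose, among them Apoa4 (1.59) and the lactase gene Lct (1.61), and their summed level was 16100 to 22200 CPM against 12600 to 13000 in WT, and 7 rose without both doubted libraries. All 5 Paneth cell markers rose, led by Lyz1 (2.13) and Ang4 (1.55), with sums of 2460 to 5040 against 1260 to 1660, and 3 rose without both doubted libraries. Of 9 goblet cell markers Zg16 rose (1.20), with sums of 2620 to 4420 against 2250 to 3170, and 3 were called higher without both doubted libraries. Of 5 stem cell markers 4 fell, among them Lgr5 (-1.23) and Ascl2 (-1.04), with sums of 1780 to 1980 against 2490 to 2830. Of 4 tuft cell markers 2 fell, Pou2f3 (-1.66) and Dclk1 (-1.16), while 3 fell without both doubted libraries and 1 with the replicate block. No enteroendocrine marker was called. Against Cdk19-/- organoids 8 of 10 enterocyte, 5 of 9 goblet and 4 of 5 Paneth markers rose in the double knockout, where 14.4% of all genes were called higher. All 5 stem markers, 1 of 4 tuft and 1 of 4 enteroendocrine markers fell there, where 1712 of 15602 genes were called lower.

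With Senexin B at 24 h the marker counts stand beside 14.8% of all genes called higher and 12.7% called lower. Of the goblet list 6 rose, led by Zg16 (1.08) and Ccl9 (1.05), and the mucus protein gene Fcgbp fell (-0.51), with sums of 2840 to 3230 against 3360 to 3790. Of 5 Paneth markers 4 fell, led by Itln1 (-1.19) and Lyz1 (-1.02), with sums of 1250 to 1720 against 2780 to 2990. Of the enterocyte list 3 rose, with Lct at 3.64, and 1 fell, Sis at -0.92, with sums of 5870 to 6460 against 6170 to 7080. Of the tuft list 3 rose, led by Avil (0.90) and Dclk1 (0.46), of the enteroendocrine list Chga rose (0.66) and Neurog3 fell (-0.42), and of the stem list Lgr5 fell (-0.97). With the replicate block 2 enterocyte, 2 goblet and 5 Paneth markers fell and 1 stem marker rose at 24 h. Of 4 intestinal identity genes Cdh17 rose (0.72) and Cdx2 fell (-0.35) in the double knockout, while Cdh17 fell (-0.41) and Cdx1 rose (0.24) with Senexin B at 24 h. Of 8 markers of blood, vessel, stromal and mammary cells 2 passed the filter in each experiment and their sum stayed at or below 5.14 CPM. By edgeR none was called in the double knockout against WT or with Senexin B at either time, while DESeq2 called 1 higher in the double knockout against WT. Ptprc, a marker of blood cells, was called higher in the double knockout than in Cdk19-/- (3.31, SE 0.912, edgeR adjusted p = 0.0197), at means of 14.15 and 1.337 normalised counts. The part of these shifts in the mucin values was not tested, and in bulk organoids more cells of a type and more RNA per cell cannot be told apart.

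The genes whose profiles most resembled each member over all 24 libraries were found by Pearson's r of log2 CPM centred within each experiment, among 11266 genes. For Muc13 they were Sat1 (r = 0.949), Rhpn2 (0.940) and Tgoln1 (0.934). For Muc3 they were Sptlc2 (0.877), Gramd3 (0.872) and Map4 (0.861). For Muc4 they were Zup1 (0.818), Trip11 (0.808) and Golga4 (0.794), and for Muc1 Rhobtb2 (0.811), Ctxn1 (0.782) and Sox21 (0.779). For Muc20 they were Gm48840 (0.725), Gm17122 (0.717) and Lypla2 (0.715), with lower values in the genotype libraries alone (0.395, 0.369 and 0.294). These coefficients describe libraries that share groups. Muc3 and Muc13 had r = 0.912 over the 12 genotype libraries and 0.444 over the 12 Senexin B libraries.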

How the data were processed

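The authors deposited read counts per gene from STAR, 1 table per library; the submitters' processing notes give STAR 2.6.0c, FastQC and GRCm38.p6. Each table holds a column with strand ignored and a column for each strand, and column 4 was used as deposited. The labels describe the Senexin B libraries as rRNA-depleted total RNA, whereas the extraction text shared by all samples names oligo(dT) beads. Members and gene lists were chosen with earlier results of these data known. Gene names and positions came from GENCODE, matching 54079 of 54146 genes, and upstream sequences from RefSeq.

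In edgeR 4.0.16 (R 4.3.3), low counts were removed with filterByExpr, libraries were scaled by TMM, and 1 quasi-likelihood model was fitted to the 12 libraries of each experiment, with Benjamini-Hochberg adjustment over all genes and a threshold of 0.05. Normalised counts are counts divided by effective library size and multiplied by its mean. Procedures were tested on simulated data. Alternatives were DESeq2 1.42.0, its size factors, no filter, at least 10 counts in every library, a replicate block, strand ignored, the compared groups alone, and leaving out each library. Leaving out both doubted libraries and summing Muc3 with Muc3a were chosen after seeing the data. No 2 replicates agreed within sampling noise (chi-square per degree of freedom at least 2.26).

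Same-numbered libraries deviated together for Senexin B against DMSO at 16 h (correlations of 0.101 to 0.303) and 24 h (0.137 to 0.377), so by this check alone the numbers pair them; the labels do not state a pairing. The named genes were the members, every other transmembrane or gel-forming mucin that passed the filter, up to 4 called partner genes and up to 2 called markers per cell type in the double knockout and 24 h Senexin B comparisons, Cdk8, Cdk19 and the 3 genes most like each member averaging 50 or more normalised counts in each experiment. Gm3054, Gm15657, Csn2, Elf5, Epcam, Cdx2, Ptprc and the markers in Cdk8-/- organoids and at 16 h were named after their values were seen.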

Additional observations from a re-analysis of the deposited data

How the results depend on the processing

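Muc3 and Muc13 stayed called in the double knockout against WT and against Cdk19-/-, and Muc13 with Senexin B at both times, under every alternative that gave a value. Summed with Muc3a, Muc3 stood against WT at 1.27 in the double knockout (edgeR adjusted p = 0.0006) and 0.75 in Cdk8-/- organoids (0.0203). Against Cdk19-/- the lowest Muc3 log2 fold change of the double knockout under any alternative was 1.33. The number of members called changed as follows. In Cdk8-/- against WT it was 1, became 2 with DESeq2 and without the filter, and was 0 to 1 without single libraries. In the double knockout against Cdk8-/- it was 0, became 2 with DESeq2 and 1 without the filter, and was 0 to 2 without single libraries. For the combined effect it was 0, became 1 with DESeq2 and without the filter, and was 0 to 1 without single libraries. With Senexin B at 24 h it was 2, became 3 with DESeq2, without the filter, with strand ignored and with only both groups fitted, Muc4 being the one added as lower, and was 1 to 3 without single libraries; for DMSO at 24 h against 16 h it was 0, and 0 to 1 without single libraries.

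With the replicate block, which pairs libraries by number, members called were 3 in place of 2 in the double knockout against WT, where Muc1 passed at 1.72, and 3 in place of 2 with Senexin B at 24 h; in Cdk8-/- Muc1 passed at 2.07 and Muc3 did not at 0.82. Numbers did not pair the genotype libraries (correlations down to -0.193), and in no pair of groups did every library correlate best with its own number. Over the whole table the block gave 3281 calls in place of 1719 for DMSO at 24 h against 16 h, 60 in place of 0 for the Senexin B effect between times, 1 in place of 4 in the double knockout against Cdk8-/- and 8 in place of 4 for the combined effect.

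Directions turned only among values that did not pass the test, and the cause was not tested. With strand ignored Muc20 turned to -0.10 in Cdk8-/-, 0.04 in Cdk19-/-, -0.18, -0.08 and -0.22 in the double knockout against WT, Cdk8-/- and Cdk19-/-, -0.12 for the combined effect, -0.14 and -0.24 with Senexin B at 16 h and 24 h, 0.18 for DMSO at 24 h against 16 h and -0.11 for the Senexin B effect between times. Muc20 also turned to -0.01 with the block in Cdk8-/- and to 0.00 without the filter with Senexin B at 16 h. Without both doubted libraries Muc20 was 0.01 in Cdk19-/-, and in the double knockout against Cdk19-/- Muc1 was -0.19 and Muc4 -0.02. Without single libraries, Muc4 ranged from -0.29 to 0.08 in Cdk8-/- and from -0.07 to 0.22 in Cdk19-/-. Muc20 ranged from -0.17 to 0.12, from -0.15 to 0.01 and, with Senexin B at 16 h, from -0.26 to 0.20. Muc1 ranged from -0.81 to 0.35 and from -0.18 to 0.64 in the double knockout against Cdk8-/- and Cdk19-/-. Muc3 ranged from -0.02 to 0.43 with Senexin B at 24 h and from -0.59 to 0.01 for its effect between times. Muc1, with 2 to 33 reads per library, was not tested with at least 10 counts in every library.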
